A study of Mus musculus with 16 samples.

Results

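Cardiopharyngeal progenitors are mesoderm cells of the early embryo that can still contribute to heart and to the muscle and connective tissue of the pharynx. The cells described here were those that transfer of labels from a mouse embryo atlas had called either "Cardiopharyngeal progenitors FHF", where FHF stands for first heart field, or simply "Cardiopharyngeal progenitors", the general label. The labels were kept apart throughout. After the deposited quality filter and removal of called doublets, 788 of 37841 analysed cells carried one of them, 668 the FHF label and 120 the general label.

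The study made chimeric mouse embryos by injecting embryonic stem cells that lack *Stat3*, on a CD1 background, into CD1 host blastocysts and profiled single cells by droplet 3′ RNA sequencing at the stages E7.5, E8.5 and also E9.5. *Stat3* null cells were tdTomato-positive descendants of the injected line, in which several exons of *Stat3* had been replaced by a neomycin resistance cassette in both alleles, and which had been stably transfected with tdTomato. Reporter lines were grown from colonies picked by hand, and the methods do not say how many such lines were injected. WT cells were tdTomato-negative host cells of the same chimeras, and any of them with a tdTomato UMI was left out here, which removed 13 cells of these labels. The labels name no other agent for either group. Per the labels, a library pooled about 10 embryos at E7.5 or 4 at E8.5 and held 1 embryo at E9.5, with 2 libraries per genotype at E8.5 and 4 at E9.5. The study's methods count only 2 embryos at E9.5, so that libraries of one genotype would share an embryo, and the files do not tie libraries to embryos. Per the labels each pool also gave one null and one WT library, so libraries of the 2 genotypes come from the same embryos. All p-values with E9.5 libraries therefore measure the spread between libraries and are too small if these share embryos. Because null cells came from injected stem cells and WT cells from the host embryos, genotype and origin cannot be told apart. Library letters A to D follow the order of the deposited library names. The files do not say which null and WT libraries share embryos, so all tests of genotype here are unpaired.

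The first heart field is the early-differentiating part of the heart-forming mesoderm, classically marked by *Tbx5*, a T-box factor of the left ventricle and atria. *Hand2* and *Gata4*, a bHLH and a zinc finger factor of the developing heart, were taken with *Tbx5* as markers of the label. The neighbouring splanchnic mesoderm, which wraps the foregut, shares *Tbx5*, *Gata4* and *Isl1* and is patterned by Hedgehog and retinoic acid signals into lung, stomach and posterior second heart field mesoderm. *Stat3* is a transcription factor activated by cytokine receptors through JAK kinases, best known in early mouse development for sustaining naive pluripotency.

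FHF cells numbered 230 at E8.5 and 436 at E9.5, and only 2, both from a null library, came from E7.5. These E7.5 cells had label scores of 0.4 and took no part in any test. The other E7.5 libraries had 0 FHF cells, so that 3 counts would be between 0.168 and 0.833% of their cells. General cells numbered 30 at E8.5 and 90 at E9.5, with none at E7.5. Analysed libraries held between 20682659 and 138613245 UMIs in all, and the summed FHF cells of a library between 704328 and 2394578 UMIs in the libraries tested. No barcode was shared by members of different libraries, although 16 members had a barcode that was also seen in another library. A tdTomato UMI was found in 73.1 to 84.8% of null FHF cells per E8.5 library and 90.8 to 100% per E9.5 library.

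The data only partly matched the name of the FHF label. Among genes detected well enough to rank, *Tbx5* stood sixth by median log2 fold over all other cells of the same library (3.19), and it was higher in FHF cells in 12 of 12 libraries. *Gata4* was likewise higher in 12 of 12 (1.63). Among the genes ahead of *Tbx5*, *Barx1*, *Osr1* and *Foxf1* are known from splanchnic mesoderm around the foregut. All genes ahead of it are described without a test because the label itself was assigned from expression. They were *Cxcl13*, a chemokine (median log2 fold 4.25), *Barx1*, a homeobox factor of stomach mesenchyme (4.24), *Osr1*, a zinc finger factor of lateral plate mesoderm (4.02), *Foxf1*, a forkhead factor of splanchnic mesoderm (3.95), and *Msc*, a bHLH factor of pharyngeal muscle precursors (3.36, higher in 11 of 12 libraries). *Aldh1a2*, which makes retinoic acid (2.47), *Wnt2*, a ligand that acts in lung specification (2.04), and *Isl1*, a LIM homeobox factor of the second heart field (1.75), were also higher. *Myl7*, the atrial myosin light chain, was lower than in all other cells in 11 of 12 libraries, with a median log2 fold of −0.75.

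*Tbx5* in FHF cells was 31.7 and 35.2 CPM (UMIs of the summed cells of a library, scaled to a common total) in the E8.5 WT libraries and 39.4 and 45.4 in the E8.5 null libraries. At E9.5 it was 122, 119, 99.1 and 58.0 CPM in WT and 171, 92.9, 122 and 111 CPM in null. All E9.5 values lay above all E8.5 values, WT and null overlapped at E9.5, and all other cells stayed between 3.80 and 7.17 CPM. *Gata4* ran from 12.4 to 32.2 CPM at E8.5 and from 8.52 to 34.9 CPM at E9.5 in FHF cells, against 2.63 to 6.64 CPM in all other cells. *Hand2* did not set the FHF cells apart: its values ran from 9.66 to 30.7 CPM, while all other cells held 19.3 to 46.9 CPM.

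**Figure D1:**
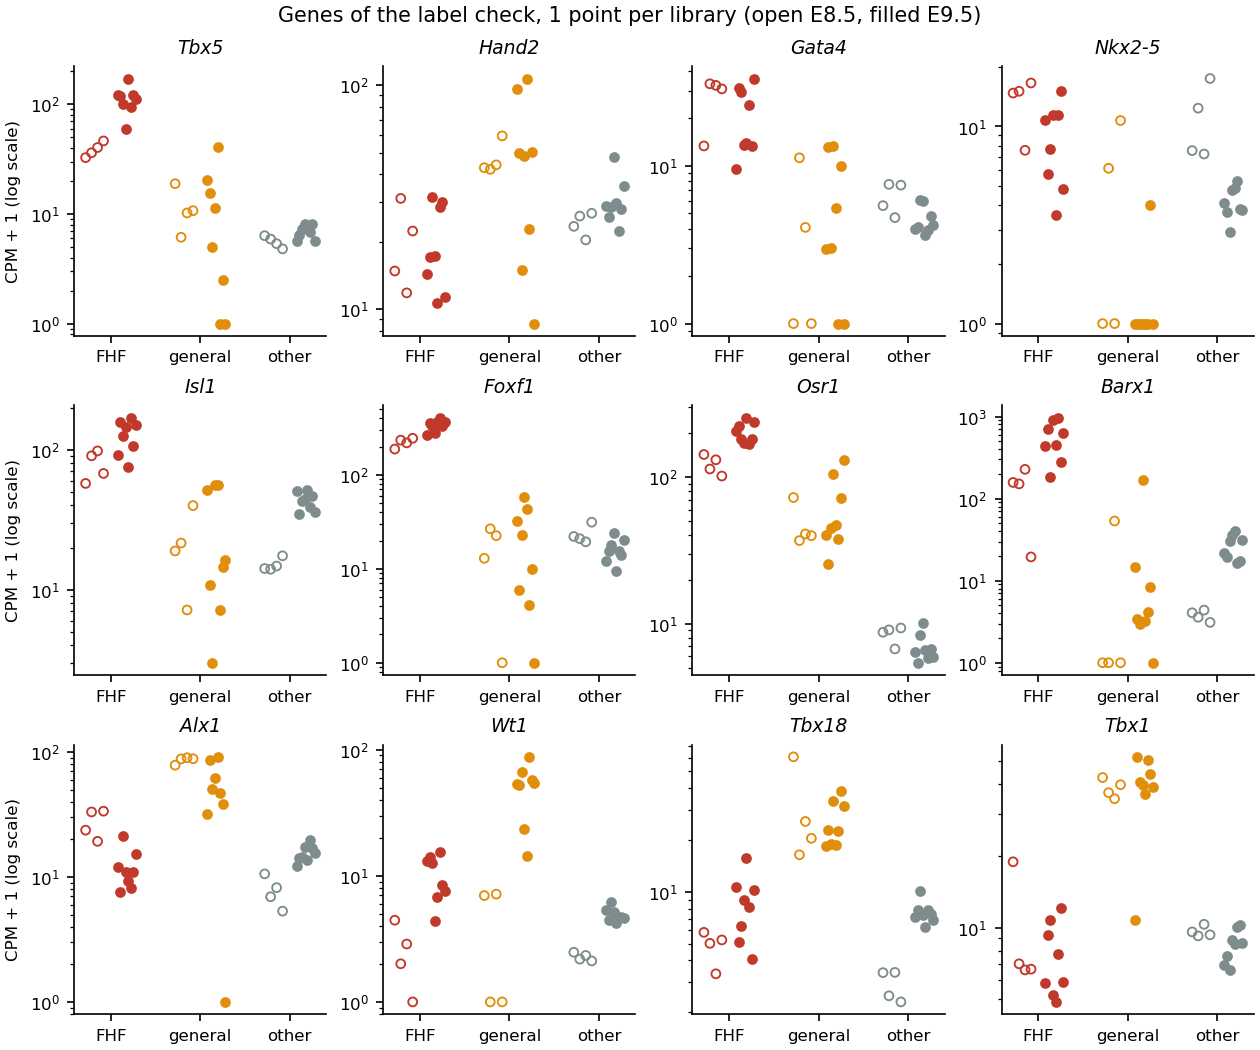
CPM plus 1 on a log axis for 12 marker genes in FHF cells, general cells and all other cells, 1 point per library, with open points for E8.5 and filled points for E9.5. *Tbx5*, *Gata4*, *Foxf1* and *Osr1* sit above all other cells in the FHF cells, *Hand2* does not, and in the general cells *Alx1* runs high except in 1 E9.5 null library at 0, and *Wt1* runs high at E9.5 only.

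When each cell was thinned to 10000 UMIs so that depth was equal, *Tbx5* was detected in 23% of FHF cells at E8.5 (exact binomial 95% interval 17.8 to 29) and 44.3% at E9.5 (39.5 to 49.1). Before thinning the shares were 34.8% and 57.6%, at medians of 21836.5 and 29406.5 UMIs per cell. Erythroid cells, which should lack the gene, gave 0% and 0.752% after thinning, from medians of 35740 and 22533 UMIs. *Gata4* was detected in 20.9% and 14.2% of thinned FHF cells, against 0.169% and 0.752% of erythroid cells. *Nkx2-5*, the homeobox factor of committed cardiac cells, was detected in 6.52% and 5.73% of thinned FHF cells at E8.5 and E9.5, against 62.1% and 35.9% of the cells labelled cardiomyocytes FHF 1. *Tnnt2*, cardiac troponin T, was found in 11.7% and 4.13% of FHF cells and in 71.3% and 48.9% of those cardiomyocytes. *Hand2* was found in 12.6% and 12.8% of FHF cells and in 83.9% and 61.1% of the cardiomyocytes. *Myl7* lay closer, in 61.3% and 24.3% of FHF cells (76.5% and 50.7% before thinning) and in 71.3% and 42.7% of the cardiomyocytes, with 4.85% and 3.26% in erythroid cells. *Gata4* was about as frequent in those cardiomyocytes (21.8% and 13%) as in FHF cells, and *Tbx5* was rarer in them (10.3% and 13%). *Foxf1* was found in 81.7% and 87.4% of FHF cells and in 39.8% and 32.2% of cells labelled cardiopharyngeal progenitors SHF (second heart field). In those SHF cells *Tbx5* was found in 6.82% and 9.60% and *Gata4* in 1.14% and 3.95%, less often than in FHF cells. *Tnnt2* was found there in 14.8% and 2.82%, near the FHF shares, *Hand2* in 27.3% and 23.7%, and *Nkx2-5* in 20.5% and 7.91%. *Isl1* was found in 45.7% and 50.5% of FHF cells, 53.4% and 54.8% of SHF cells and 72.4% and 62.6% of the cardiomyocytes. The cells named FHF carried *Tbx5* and *Gata4* above all other cells, held *Nkx2-5*, *Hand2* and *Tnnt2* far less often than the labelled first-field cardiomyocytes, but not *Gata4*, *Tbx5* or, at E8.5, *Myl7*, and are called here by their label only.

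Contractile transcripts made up few of the UMIs of FHF cells, although *Myl7* was often detected. Per 10000 UMIs the median FHF cell had 9 sarcomere UMIs at E8.5 and 6 at E9.5, the highest cell had 26 and 32, and 0 cells reached 100. Summed cardiomyocyte markers (*Tnnt2*, *Myl7*, *Actn2*, *Ttn* and *Nppa*) in FHF cells ran from 115 to 179 CPM at E8.5 and from 23.1 to 51.4 CPM at E9.5, below the 228 to 557 CPM and 63 to 154 CPM of all other cells. *Nppa*, the atrial natriuretic peptide, was at 0 in FHF cells at E9.5.

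Markers of most other cell types were also lower in FHF cells than in all other cells. Over all 12 libraries the summed markers ran from 0 to 10.1 CPM for erythroid cells, from 8.05 to 28 CPM for endoderm, from 2.84 to 65.7 CPM for neural cells, from 0 to 10.3 CPM for neural crest and from 10.3 to 50.7 CPM for paraxial mesoderm. Endothelial markers stayed at or below 11.7 CPM except for E9.5 null libraries, which reached 37.6 CPM, within the 26.3 to 43.3 CPM of all other null cells. Mesothelial markers reached 36.4 CPM in FHF cells at E9.5, where all other cells had 13.5 to 26.2 CPM.

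FHF cells with and without *Tbx5* differed in what else they expressed at E9.5. Of the 436 cells at equal depth, 193 had a *Tbx5* UMI and 243 did not. *Nkx6-1*, a homeobox factor, was detected in 150 of the *Tbx5* cells (77.7%) and in 37 of the others (15.2%), and was higher with *Tbx5* in 8 of 8 libraries. *Tbx4*, a T-box factor of lung mesoderm and hindlimb, was detected in 28 (14.5%) against 3 (1.23%), and *Osr1* in 165 (85.5%) against 112 (46.1%), both also higher in 8 of 8 libraries. The reverse held for *Barx1*, which was detected in 18 of the *Tbx5* cells (9.33%) and in 135 of the others (55.6%), lower with *Tbx5* in 8 of 8 libraries. Per library the shares of *Barx1* ran from 0 to 17.7% with *Tbx5* and from 36.4 to 68.2% without it, so they did not overlap. *Isl1* (38.3 against 60.1%) and *Hand2* (4.15 against 19.8%) were lower with *Tbx5* in 7 of 8 libraries each. *Gata4* was found about as often in both, in 13.5% and 14.8%. At E8.5 only 53 of 230 thinned cells had *Tbx5*, *Barx1* was again lower with it in 4 of 4 libraries (11.3 against 35%), and *Nkx6-1* was rare in both (9.43 and 5.65%). At E9.5 *Tbx5* and *Barx1* were thus mostly detected in different cells of the FHF label, with *Nkx6-1* on the side of *Tbx5*. These pairs were chosen after seeing the data and are given as a description.

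The general label shared leading genes with the FHF label, among them *Osr1*, *Aldh1a2* and *Pdgfra*, and was also led by others. Over all other cells, in the 10 libraries with enough cells, its leading genes included *Meg3*, an imprinted long noncoding RNA (median log2 fold 2.12), *Wt1*, the zinc finger factor of mesothelium and epicardium (2.11), *Osr1* (2.09), *Aldh1a2* (2.07), *Pdgfra*, a mesenchymal growth factor receptor (2.02), *Alx1*, a homeobox factor of craniofacial mesenchyme (1.98), and *Tbx1*, the T-box factor of pharyngeal mesoderm (1.77). *Hand2* was higher in 9 of 10 libraries (0.77), while *Isl1* (−0.36) and *Barx1* (−0.74) were lower in the median. *Tbx5* in general cells lay between 0 and 39.8 CPM over libraries and *Gata4* between 0 and 12.3 CPM. At equal depth *Tbx5* was detected in 13.3% and 6.67% of general cells at E8.5 and E9.5, *Alx1* in 40% and 36.7%, and *Wt1* in 6.67% and 28.9%. *Hand2* was detected in 33.3% and 25.6% of general cells, against 12.6% and 12.8% of FHF cells, and *Gata4* in 0% and 3.33% of general cells, where 0 of 30 cells has an exact binomial upper limit of 11.6%. Before thinning, 10% and 12.2% of general cells had a *Gata4* UMI. The label score, the share of the 25 nearest atlas cells that carry the assigned label, averaged 0.704 to 0.88 over libraries in FHF cells and 0.523 to 0.672 in general cells.

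Mapping gave these cells an atlas stage as well. FHF cells most often matched E8.75, in 149 of 230 cells at E8.5 (64.8%) and in 225 of 436 at E9.5 (51.6%). General cells most often matched E9.25, in 18 of 30 (60%) and 67 of 90 (74.4%). The mean matched stage did not separate genotypes: in FHF cells null minus WT was −0.00648 days (exact two-sided permutation over libraries within stage, p = 0.762, adjusted p = 0.894 over 10 tests of this kind).

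*Stat3* null cells contributed to both labels. FHF cells made up 2.04% and 1.57% of the cells in the E8.5 WT libraries and 2.40% and 2.27% in the E8.5 null libraries. At E9.5 the shares were 0.812, 2.42, 2.73 and 2.28% in WT and 1.34, 2.70, 2.45 and 2.78% in null. The null shares lay above the WT shares at E8.5, and the groups overlapped at E9.5, where the A libraries of both genotypes were low. The exact binomial 95% interval of the lowest share, in E9.5 WT A, ran from 0.526 to 1.196% and that of the highest, in E9.5 null D, from 2.02 to 3.73%. Null minus WT was 0.528 percentage points at E8.5 (exact two-sided permutation p = 0.333, the smallest this design allows), 0.256 at E9.5 (p = 0.543, smallest possible 0.0286) and 0.392 over both stages (p = 0.219, adjusted p = 0.714).

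General cells made up 0.236% and 0.288% of E8.5 WT libraries and 0.261% and 0.262% of E8.5 null libraries. At E9.5 they made up 0.357, 0.530, 0.525 and 0.430% in WT and 0.347, 0.332, 0.753 and 0.194% in null. The WT values lay inside the null range at E9.5 and straddled the null values at E8.5. Null minus WT over both stages was −0.0272 percentage points (exact two-sided permutation p = 0.69, adjusted p = 0.894). In a quasi-likelihood fit of cell counts over all labels with edgeR, the null effect on FHF abundance was 0.38 on the log2 scale at E8.5 (SE 0.32, adjusted p = 0.984) and 0.17 at E9.5 (SE 0.38, adjusted p = 0.997), and on general abundance −0.18 at E9.5 (SE 0.58, adjusted p = 0.997). Without 1 library, the FHF effect at E8.5 ranged from 0.10 (without E8.5 WT B) to 0.65 (without E8.5 WT A). Those E8.5 fits also took in the E9.5 libraries, unlike the main fit. The FHF effect at E9.5 ranged from −0.0782 (without E9.5 WT A) to 0.37 (without E9.5 null A). The general effect at E9.5 ranged from −0.63 (without E9.5 null C) to −0.0417 (without E9.5 null D). A difference was not detectable at these numbers of libraries, and the standard errors leave room for moderate changes in either direction.

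**Figure D2:**
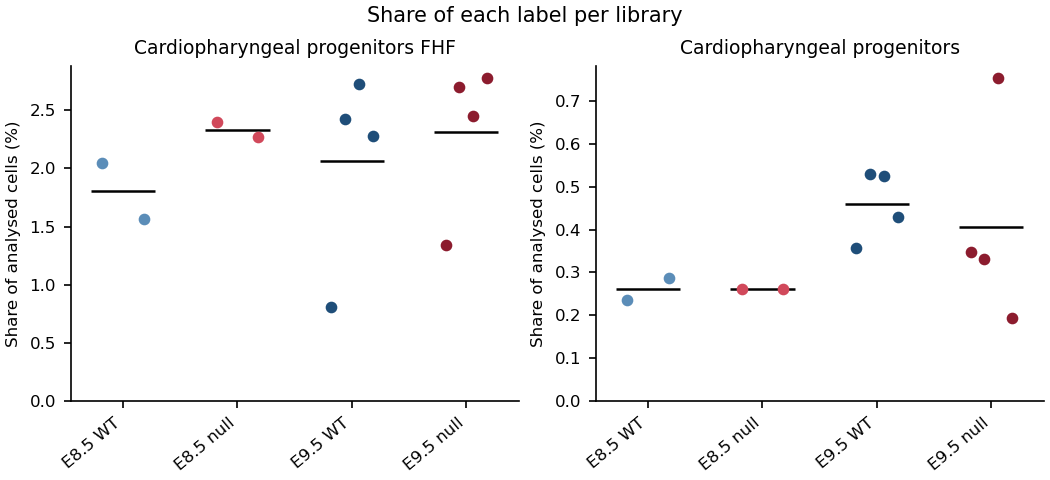
Percent of a library's analysed cells with the FHF label and with the general label, 1 point per library and a line at the group mean. WT and null libraries overlap at E9.5 for both labels, and the FHF shares of the E9.5 A libraries, 0.812 and 1.34%, are the lowest of their groups.

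*Stat3* itself was scarcely detected in these cells. In FHF cells it was 0.689 and 2.01 CPM in E8.5 WT, 0 and 2.84 CPM in E8.5 null, 3.65, 3.56, 3.11 and 1.25 CPM in E9.5 WT, and 0.644, 0, 0.618 and 2.18 CPM in E9.5 null. The counts behind these values were 3, 2, 19 and 6 UMIs in the same order, and WT and null overlapped at both stages. In all other cells *Stat3* was 6.22 to 7.87 CPM in WT and 1.52 to 2.58 CPM in null, without overlap. Tags of 3′ sequencing usually lie near the transcript end, and where these reads fall relative to the replaced exons was not checked. This level is therefore not taken as a check of the deletion. *Socs3*, the feedback inhibitor that STAT3 induces, was 15.8, 15.4, 13.3 and 5.85 CPM in E9.5 WT FHF cells and 10.9, 10.4, 7.42 and 12.5 CPM in null. The groups overlapped, and the log2 fold change was −0.21 (SE 0.28, edgeR adjusted p = 0.987). Of 33 listed genes of JAK and STAT signalling, 18 were tested in FHF cells at E9.5 and none passed, the smallest adjusted p being 0.82. Only 0.222% of all tested genes passed, so a list of this size with no passing gene does not stand apart.

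Null and WT FHF cells were then compared over all genes. UMIs were summed per library and tested with edgeR, with libraries as replicates whether or not they shared an embryo, and a gene was called when its Benjamini-Hochberg adjusted p was under 0.05 and its log2 fold change over 1 in size. At E9.5, 12 of 9024 genes were called (0.133%), 5 higher in null (0.0554%) and 7 lower (0.0776%), and all 12 had groups that did not overlap, which 3.47% of all tested genes had. The label markers were not among them: the log2 fold change was 0.34 for *Tbx5* (SE 0.28, adjusted p = 0.987), −0.06 for *Hand2* (SE 0.45) and 0.01 for *Gata4* (SE 0.48). On the adjusted p alone, which is how lists are counted throughout, none of the tested genes passed in the lists of cardiac transcription factors (15 tested), sarcomere genes (9), second heart field genes (17), lateral plate genes (12), BMP (19), FGF (11), Wnt (17) or retinoic acid signalling (11). Cell cycle, oxidative phosphorylation, glycolysis, p53 and stress lists held no passing gene either. In the Notch and Hedgehog list 1 of 12 passed, *Ptch1*, the Hedgehog receptor, higher by 0.42 (adjusted p = 0.0139). Of all genes 0.222% passed the adjusted p (0.133% higher and 0.0887% lower), and their median log2 fold change was 0.0009.

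*Grb10* had the largest change of the 12 called genes, and several imprinted genes moved with it. *Grb10*, an imprinted adaptor that restrains growth (chromosome 11, 11930508 to 12038683, minus strand, GRCm38), was 388, 441, 400 and 419 CPM in the E9.5 WT libraries and 14.2, 24.8, 4.95 and 5.45 CPM in null. Every null library was far below every WT library, a log2 fold change of −4.99 (SE 0.33, adjusted p = 0.00252). At E8.5 the WT libraries had 275 and 259 CPM, but the null libraries 27.7 and 227, so only one of them was low.

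*H19*, an imprinted long noncoding RNA that restrains growth (chromosome 7, 142575529 to 142578143), was 605, 609, 512 and 654 CPM in E9.5 WT and 41.2, 22.1, 8.04 and 110 CPM in null. The groups lay far apart, but the change of −3.72 (SE 0.57) did not pass, at an adjusted p of 0.159. Its neighbour *Igf2*, a paternally expressed growth factor, was 191, 203, 169 and 167 CPM in WT and 338, 332, 281 and 344 CPM in null, again without overlap. *Igf2* passed the adjusted p (4.95e-07) at a log2 fold change of 0.83 (below the size a call needed).

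*Zdbf2*, another paternally expressed gene (chromosome 1, 63273265 to 63314576), was 70.6, 68.1, 47.1 and 85.2 CPM in WT and 125, 161, 116 and 144 CPM in null at E9.5, a log2 fold change of 1.01 (SE 0.16, adjusted p = 0.00911). *Slc38a4*, an imprinted amino acid transporter, rose by 0.92 (adjusted p = 0.00182). Of 29 imprinted genes tested, these 3 of the list passed the adjusted p, *Igf2* and *Slc38a4* higher and *Grb10* lower. *Grb10* and *H19* also lay apart in all other cells of these libraries. *Grb10* was 350 to 372 CPM there in E9.5 WT and 9.90 to 22.3 CPM in null, and 12.3 and 263 CPM in the E8.5 null libraries, which again differed from each other. In a test of whether the null effect differed between FHF cells and all other cells, *Grb10* gave −0.08 and *Zdbf2* −0.07 on the log2 scale, and neither was called.

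*Cwc22*, a spliceosome factor (chromosome 2, 77881159 to 77946375), was 43.8, 51.0, 42.7 and 42.2 CPM in E9.5 WT FHF cells and 210, 187, 177 and 210 CPM in null. Every null library lay far above every WT library, with a log2 fold of 2.11 (SE 0.11) and the smallest adjusted p of the 12 called genes, 3.71e-14. The gene has close copies in the mouse genome, so the source of its reads is uncertain. At E8.5 it was 79.2 and 80.5 CPM in WT and 92.9 and 143 CPM in null, and its null effect was greater at E9.5 by 1.60 (SE 0.21, adjusted p = 0.000105), the 1 gene of 9526 called (0.0105%) when the effect was compared between stages.

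Other genes that fell in null FHF cells at E9.5 were *Hist1h4i*, a histone H4 gene with near-identical copies (−2.20, SE 0.20), *Akr1e1*, an aldo-keto reductase (−2.16, SE 0.41), *Msrb2*, a mitochondrial methionine sulfoxide reductase (−1.75, SE 0.34), *Pusl1*, a pseudouridine synthase-like gene (−1.60, SE 0.28), *Tagln*, an actin-binding protein of smooth muscle (−1.40, SE 0.25), and *Tpm3-rs7*, a tropomyosin-related sequence that shares reads with *Tpm3* (−1.07, SE 0.11). *Akr1e1* was 13.4, 13, 28.4 and 8.77 CPM in WT and 4.51, 1.80, 4.33 and 4.36 CPM in null. *Tagln* was 29.2, 49.2, 35.1 and 18.8 CPM in WT and 12.9, 12.2, 13 and 12 CPM in null, with a tight null group below every WT library. In all other cells *Tagln* overlapped between WT (29.7 to 75.6 CPM) and null (34.8 to 59.7 CPM), but the difference of the null effect between FHF and other cells did not pass (−0.94, SE 0.53, adjusted p = 1). The *Tagln* call was lost among cells with a label score of 0.6 or more (−0.82, adjusted p = 0.969).

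Among the other genes higher in null were *Rem2*, a small GTPase that acts on calcium channels (1.34, SE 0.28), and *Camk2n1*, an inhibitor of CaM kinase II (1.19, SE 0.26). The calls of *Akr1e1*, *Rem2* and *Camk2n1* were each lost in 6 of 8 fits that left out 1 E9.5 library, and those of *Tagln* and *Zdbf2* in 5 of 8.

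**Figure D3:**
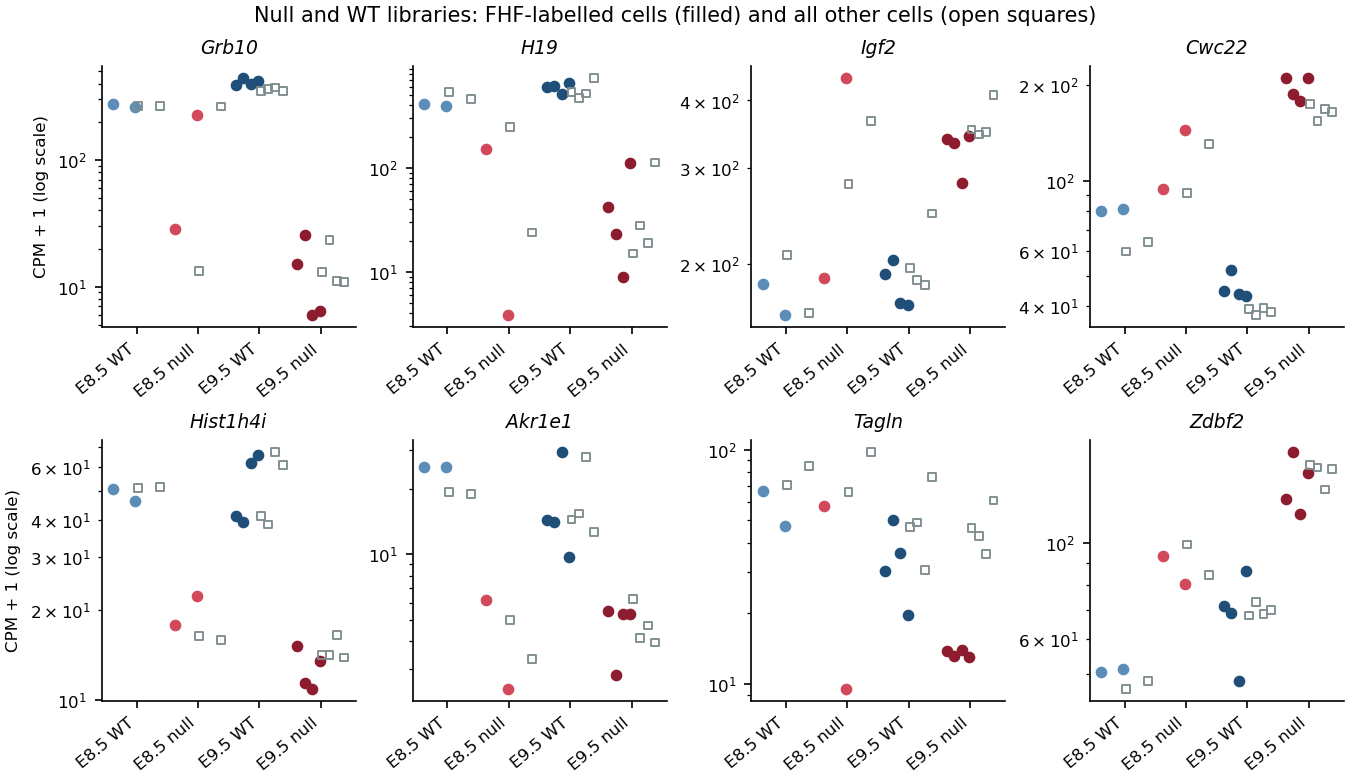
CPM plus 1 on a log axis for 8 genes in FHF cells (filled points) and in all other cells of the same libraries (open squares), by stage and genotype. At E9.5 WT and null do not overlap in FHF cells for any of the 8 genes, while at E8.5 the null libraries lie apart from each other for *Grb10*, *H19* and *Tagln*.

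At E8.5, with 2 libraries per genotype, 1 of 7831 genes was called (0.0128%). *Akr1e1* was 24.1 CPM in both WT libraries and 5.16 and 1.42 CPM in null, a log2 fold change of −2.49 (SE 0.43, adjusted p = 0.0228). Its call was lost in each of the 4 fits without 1 E8.5 library. Those fits also took in the E9.5 libraries, so the loss cannot be laid to the missing library alone. *Tmem14c*, a mitochondrial carrier needed for haem synthesis, was 97.1 and 118 CPM in WT and 189 and 202 CPM in null and passed the adjusted p (0.0205) at a log2 fold of 0.89, and 0.0255% of all genes passed it. *Tbx5* (0.34, SE 0.24), *Hand2* (−0.56) and *Gata4* (0.58) did not pass. Non-overlap says little here, since 33.2% of all tested genes had groups that did not overlap. *Selenop*, a selenium carrier, was 4.13 and 7.04 CPM in WT and 24.4 and 55.4 CPM in null and did not pass (2.71, adjusted p = 0.0505). The others of smallest p that did not pass were *Uchl1* (1.10), *Pop4* (0.95) and *Zdbf2* (0.83), higher in null, and *Hist1h4i* (−1.36), *Pusl1* (−1.65), *Eif3j1* (−0.54) and *Hist1h2bm* (−0.96), lower, with adjusted p of 0.0505 to 0.441. Fitting both stages together called 8 of 9291 genes (0.0861%). *Akr1e1*, *Hist1h4i*, *Pusl1*, *Msrb2* and *Akr1b8*, a related reductase (−2.02, SE 0.40), were lower in null (5 genes, 0.0538%), and 3 genes (0.0323%), among them *Jph4* and *Zfp985*, were higher. Both passed the filter on low counts in 9 of 12 fits without 1 library, and the call of *Zfp985* was lost in 5 of those 9. *Grb10* (−3.47, adjusted p = 0.157), *Igf2* (0.82, 0.173) and *Cwc22* (1.62, 0.0536) did not pass in that fit, where 0.215% of all genes passed the adjusted p and 1 of 30 imprinted genes of the list did, *Slc38a4* (0.84, adjusted p = 0.000263). *Jph4*, a junctophilin, was at most 1.22 CPM in any WT library and from 1.41 to 8.65 CPM in null ones (adjusted p = 0.000679). At E9.5 this was 3 UMIs over the WT libraries against 46 over the null ones, so no fold is given.

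General cells could be tested at E9.5 only, with a lower limit of more than 5 cells per library that left 4 WT and 3 null libraries. There 11 of 6110 genes were called (0.18%), 6 higher in null (0.0982%) and 5 lower (0.0818%), all without overlap, against 6.66% of all tested genes. *H19* was 1169, 1006, 739 and 1188 CPM in WT and 2.21, 6.19 and 17.9 CPM in the null libraries tested, a fall of 6.60 on the log2 scale (SE 0.38, adjusted p = 4.83e-05). The null library left out for its 3 cells had 365 CPM. *Grb10* (−5.37, SE 0.24), *Cwc22* (2.45, SE 0.21), *Igf2* (1.15, SE 0.13), *Zdbf2* (1.26) and *Slc38a4* (1.12) moved in the directions seen in FHF cells of the same libraries, though the call of *Slc38a4* was lost in 6 of 7 fits without 1 library.

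*Msx1*, a homeobox gene that responds to BMP, was 39.0, 19.5, 26.0 and 57.4 CPM in WT general cells at E9.5 and 2.21, 6.19 and 5.96 CPM in null ones. The groups lay apart by a log2 fold change of −2.82 (SE 0.51, adjusted p = 0.0046). *Msx1* passed the filter on low counts in 4 of 7 fits without 1 library and was called in those 4. In FHF cells *Msx1* ran from 4.87 to 20.7 CPM in WT and from 5.56 to 14.7 CPM in null, with overlap. A call under one label only does not show a difference between the labels, and the 1 gene called for such a difference was another, given below. *Pttg1*, the securin of chromosome separation (−1.28), and *Tpm3-rs7* (−1.20) fell as well, and *Rcn3*, an endoplasmic reticulum calcium binder (1.03), and *Hist2h2ac*, a histone H2A gene with near-identical copies (1.59, its call lost in 5 of 7 fits without 1 library), rose. *Hand2* differed by 0.24 (SE 0.72, adjusted p = 0.995). With the E8.5 libraries of more than 5 general cells added, 5 of 6486 genes were called (0.0771%), *Cwc22* and *Zdbf2* higher (0.0308%) and *Grb10*, *Pttg1* and *Tpm3-rs7* lower (0.0463%). Of 26 imprinted genes of the list tested there, *Grb10* alone passed the adjusted p, so *H19*, *Igf2* and *Slc38a4* did not. No gene of the lateral plate list, which holds *Msx1*, passed in that fit either (smallest edgeR adjusted p = 0.418).

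The null effect differed between the labels for 1 of 8435 genes (0.0119%). *Pth1r*, the receptor for parathyroid hormone and its related peptide, was 37.7, 35.0, 32.4 and 23.4 CPM in WT and 88.9, 49.2, 53.8 and 50.1 CPM in null FHF cells at E9.5. In general cells at E9.5 it was 44.9, 68.3, 58.0 and 69.6 CPM in WT and 57.5, 27.9 and 22.3 CPM in the null libraries tested. The null library left out for its 3 cells had 7.60 CPM. Null was higher than WT in FHF cells at E9.5 without overlap. In general cells the null value of 57.5 CPM lay inside the WT range and the others tested lay below it. The test took libraries of both stages, and the effects differed by −1.66 (SE 0.32, edgeR adjusted p = 0.0283). The call was lost in 6 of 10 fits without 1 library and by DESeq2. Against all other cells, 1 of 14045 genes (0.00712%) had a different null effect in FHF cells. *Fam210b*, a mitochondrial protein of haem metabolism, was 28.9 and 22.1 CPM in E8.5 WT and 43.6 and 36.9 CPM in E8.5 null FHF cells, but 49.7 and 38.3 against 24.4 and 20.4 CPM in all other cells. At E9.5 it was 12.2, 13, 7.56 and 14.2 CPM in WT and 12.9, 14.9, 28.4 and 22.9 CPM in null FHF cells, and 16.7 to 27.3 against 10.5 to 15.4 CPM in all other cells. Null lay above WT in FHF cells, with overlap at E9.5, and below WT in all other cells, and the effects differed by 1.48 (SE 0.20, adjusted p = 0.000584). Summed erythroid markers in all other cells also differed with genotype, at 31.6 to 96.7 CPM in E9.5 WT and 2.45 to 5.77 CPM in E9.5 null, but overlapped at E8.5, at 246 to 314 CPM in WT and 155 to 288 CPM in null. Their part in this difference was not tested.

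The promoters of the called genes were searched for the STAT core motif TTCNNNGAA, which is its own reverse complement and so covers both strands. In RefSeq windows of 250 bases before to 50 after the start (GRCm38.p6), 2288 of 27025 promoters held it (8.47%). Of 22 genes called in any null against WT fit, 15 had a promoter in the table, and 1, *Zdbf2*, held the motif. This is no excess over the 8.47% of all promoters. Its window is shown beside that of *Socs3*, the STAT3 feedback gene described above, with the motif in capitals. The *Zdbf2* start used by RefSeq lies upstream of the gene start in the annotation of the coordinates given above. The *Zdbf2* window is chr1:63200108-63200407 on the plus strand with the motif starting 242 bases before the start, and the *Socs3* window chr11:117969317-117969616 on the minus strand with the motif 154 bases before it.
Zdbf2: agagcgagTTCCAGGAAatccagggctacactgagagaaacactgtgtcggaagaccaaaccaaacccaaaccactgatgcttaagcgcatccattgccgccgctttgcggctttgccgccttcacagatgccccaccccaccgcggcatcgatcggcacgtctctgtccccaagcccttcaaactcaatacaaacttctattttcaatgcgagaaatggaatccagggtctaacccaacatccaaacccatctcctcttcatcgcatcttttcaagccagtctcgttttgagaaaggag
Socs3: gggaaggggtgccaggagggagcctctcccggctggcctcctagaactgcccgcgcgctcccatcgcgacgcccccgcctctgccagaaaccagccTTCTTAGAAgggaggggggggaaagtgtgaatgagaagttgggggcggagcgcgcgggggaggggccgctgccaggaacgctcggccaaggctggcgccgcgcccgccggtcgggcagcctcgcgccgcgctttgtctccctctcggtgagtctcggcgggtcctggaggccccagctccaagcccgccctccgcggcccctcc
A match is a description of these letters and not of binding. *Zdbf2* rose in null FHF cells and *Socs3* did not pass the test.

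More genes differed between stages than between genotypes in FHF cells. With genotype as a covariate, in a comparison added after seeing the data, 385 of the same 9291 genes were called between E8.5 and E9.5 (4.14%), 302 higher at E9.5 (3.25%) and 83 lower (0.893%), and groups did not overlap for 12.8% of all genes. On the adjusted p alone, as used for the lists, 19.7% of all genes passed, 8.86% higher and 10.8% lower. Null and WT libraries of one pool share embryos but were counted as separate replicates here, and in WT libraries alone 247 genes were called. E8.5 and E9.5 cells came from different embryos and libraries, so stage and library preparation cannot be told apart. Cells of the label at E9.5 need not descend from those at E8.5.

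Of 12 genes of splanchnic and foregut mesoderm, a list drawn up after seeing the data and so no independent evidence, 8 rose and 1 fell (median 1.19). *Tbx5* rose by 1.40 on the log2 scale (SE 0.26, adjusted p = 0.00341). *Tbx4* went from 1 UMI in each of 2 E8.5 libraries and none in the others to between 2.09 and 14.8 CPM in all 8 E9.5 libraries. *Nkx6-1* was 7.57, 6.04, 10.3 and 1.42 CPM in the 4 E8.5 libraries and from 62.6 to 149 CPM at E9.5, a rise of 3.43 (adjusted p = 8.46e-05). Of 17 cardiac transcription factors tested, 3 rose, *Tbx5*, *Tbx2* (2.26) and *Tbx3* (2.57), and 2 fell, *Gata6* (−0.79) and *Zfpm1*, a cofactor of GATA proteins (−0.88). Of 17 second heart field genes 5 rose, with *Msc* going from 0 to 6.10 CPM at E8.5 to 33.2 to 93.7 CPM at E9.5 (4.13), and 4 fell, among them *Aldh1a2* (−0.67) and *Eya1*, a transcriptional coactivator (−0.93). Within either genotype *Tbx5*, *Tbx3*, *Tbx4*, *Nkx6-1* and *Msc* did not overlap between stages. *Hand2* (0.05, adjusted p = 0.961), *Gata4* (−0.44), *Isl1* (0.56) and *Nkx2-5* (−0.71) did not pass, and neither did *Barx1* (1.79, adjusted p = 0.0646).

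Several of the largest changes between stages were in genes close to 0 at one of them. *Eva1a*, *Miat*, a long noncoding RNA, and *Igf1*, a growth factor, were at 0 UMIs in all 4 E8.5 libraries and ran from 4.59 to 16.9, from 2.71 to 16.1 and from 1.25 to 10.3 CPM at E9.5. *Bcl11a*, a zinc finger repressor, went from 0 to 4.26 CPM at E8.5 to 35.5 to 82.4 CPM at E9.5 (5.47). *Zic1* (4.67), *Nkx2-3* (4.64), *Bcl11b* (4.43), *Cdo1* (4.11) and *Epha5* (4.10) followed, all low at E8.5, and the call of *Zic1* was lost in 5 of 12 fits without 1 library. Downward, *Ftcd* (−4.97) and *Car4*, a carbonic anhydrase (−3.62), led. *Lhx1*, a LIM homeobox gene of early mesoderm, fell from 18.3 to 35.8 CPM at E8.5 to 0.545 to 4.33 CPM at E9.5 (−3.45), and *Nr6a1*, an orphan nuclear receptor, from 58.2 to 108 CPM to 6.44 to 20.7 CPM (−2.59). *Nxf3* (−2.36), *Tdrd12* (−2.25), *Mme* (−2.20) and *Cd36* (−2.15) fell without overlap as well.

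Markers of other cell types also moved between stages in FHF cells. *Pax3*, of paraxial mesoderm (3.45), *Wt1*, of mesothelium (2.09), and *Epcam*, of endoderm (1.45), rose, each as the 1 passing marker of 3, 2 and 1 tested of its list. Neither of the 2 neural markers tested passed (1.77 and 1.90). Summed neural markers ran from 2.84 to 10.3 CPM at E8.5 and from 9.02 to 65.7 CPM at E9.5, while those in all other cells ran from 132 to 149 and from 177 to 270 CPM. Mesothelial markers ran from 4.22 to 9.64 CPM at E8.5 and from 14.2 to 36.4 CPM at E9.5, endoderm markers from 8.05 to 12.7 and from 8.30 to 28.0 CPM, and paraxial mesoderm markers from 12.8 to 27.5 and from 10.3 to 50.7 CPM. The part of such transcripts in the changes between stages was not tested.

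Several contractile genes fell. *Myl7* was 97.1, 147, 137 and 124 CPM in the E8.5 libraries and from 18.3 to 41.8 CPM at E9.5, a change of −2.02 (adjusted p = 9.34e-13). *Tnni1*, slow skeletal troponin I of the embryonic heart (−2.14), *Tnnt2* (−1.76) and *Actc1*, cardiac actin (−1.34), fell as well. Of 11 sarcomere genes tested, 6 fell and 1, *Smpx*, rose by 4.51, with a median of −0.86 where all genes had 0.021. The cardiomyocyte markers summed over all other cells of the same libraries fell too, from 228 to 557 CPM at E8.5 to 63 to 154 CPM at E9.5, and their part in the fall in FHF cells was not tested.

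Among signalling lists, FGF genes had the largest share that passed. Of 13 FGF genes tested, 7 rose and 1 fell (median 0.63), against 19.7% of all genes in either direction, with *Fgf10*, the ligand of lung budding, up by 1.60, and *Etv5* and *Spry2*, a target and a feedback inhibitor of FGF signalling, up by 2.58 and 1.99. BMP (4 of 20 higher, 1 lower), Wnt (3 of 17 higher, 1 lower) and retinoic acid genes (2 of 13 higher, 2 lower) had smaller shares, and those of BMP and Wnt were near that of all genes. Of 18 JAK and STAT genes, 5 rose and 1 fell, beside the same 19.7% of all genes. *Socs3* (1.46, edgeR adjusted p = 0.002), *Socs2*, another feedback inhibitor (1.13), and *Stat5b* (1.27) were among those that rose. *Lifr*, the receptor of leukaemia inhibitory factor, fell (−1.05). Of 24 extracellular matrix genes 7 rose, among them the collagens *Col1a2* (1.996) and *Col1a1* (1.00), and 3 fell, among them *Hapln1*, the hyaluronan link protein (−2.03). Here too the share of all genes was 19.7%.

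More metabolic genes fell than rose. Of the tested genes, 15 of 24 glycolysis genes fell and 1 rose (median −0.46), and 25 of 50 oxidative phosphorylation genes fell and 1 rose (median −0.23). Over all genes 10.8% fell and 8.86% rose on the adjusted p alone. Most of these metabolic changes were smaller than a call needed. Only 1 glycolysis gene was called lower and 1 higher, and no oxidative phosphorylation, S phase or G2 and M phase gene was called. Of 30 S phase genes 11 fell and none rose, while of 46 G2 and M phase genes 2 fell and 3 rose (median 0.0065). *Slc2a3*, a neuronal-type glucose transporter, fell by 1.72. Among stress genes 5 of 13 fell and none rose (median −0.41), and the immediate early genes *Fos* (−2.08), *Fosb* (−2.82) and *Egr1* (−1.48), which also respond to tissue dissociation, fell together. *Cdkn1c*, an imprinted inhibitor of the cell cycle, rose by 1.37 (adjusted p = 2.61e-13).

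**Figure D4:**
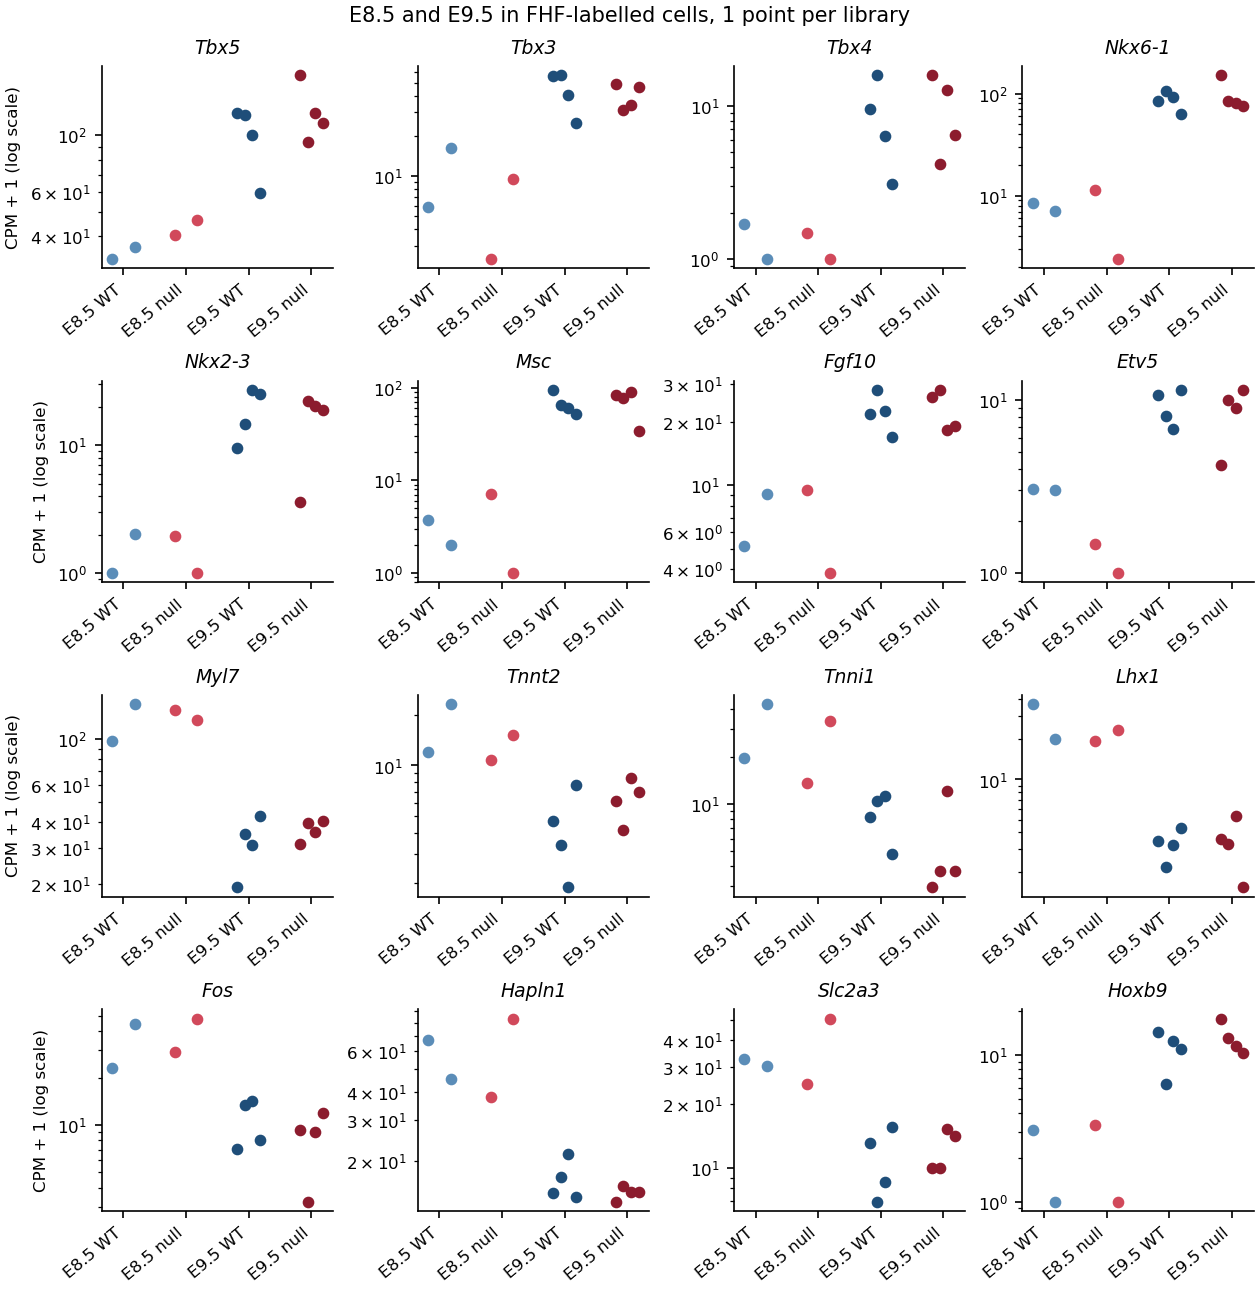
CPM plus 1 on a log axis for 16 genes in FHF cells at E8.5 and E9.5, 1 point per library, by genotype. *Tbx5*, *Tbx3*, *Nkx6-1* and *Msc* lie higher and *Myl7*, *Lhx1* and *Hapln1* lower at E9.5 in every library.

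The Hox genes, which mark position along the body axis in the order of their paralogue groups, differed between the stages in FHF cells. Of 22 Hox genes tested, a list added after seeing the data, 8 rose and 2 fell (median 0.69). Of all genes 8.86% rose and 10.8% fell on the adjusted p alone. *Hoxb9* (2.67) and *Hoxc8* (2.89) were among those that rose, and *Hoxb1* (−0.89, adjusted p = 0.012) among those that fell. Summed over a group, FHF cells went from a mean of 171 to 257 CPM in group 4, from 8.14 to 37.4 in group 8 and from 2.35 to 29.8 in group 9. General cells went from 1.54 to 101 CPM in group 8 and from 2.82 to 119 in group 9, with a wide spread of 9.76 to 349 CPM between libraries in the last. The means of groups 8 and 9 were higher at E9.5 under both labels. These genes did not set the general cells apart. Over the 10 libraries of both stages, *Hoxb9* and *Hoxc8* were lower there than in all other cells in the median (log2 fold −1.44 and −0.59). Whether Hox genes changed alike between stages in all other cells was not tested.

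**Figure D5:**
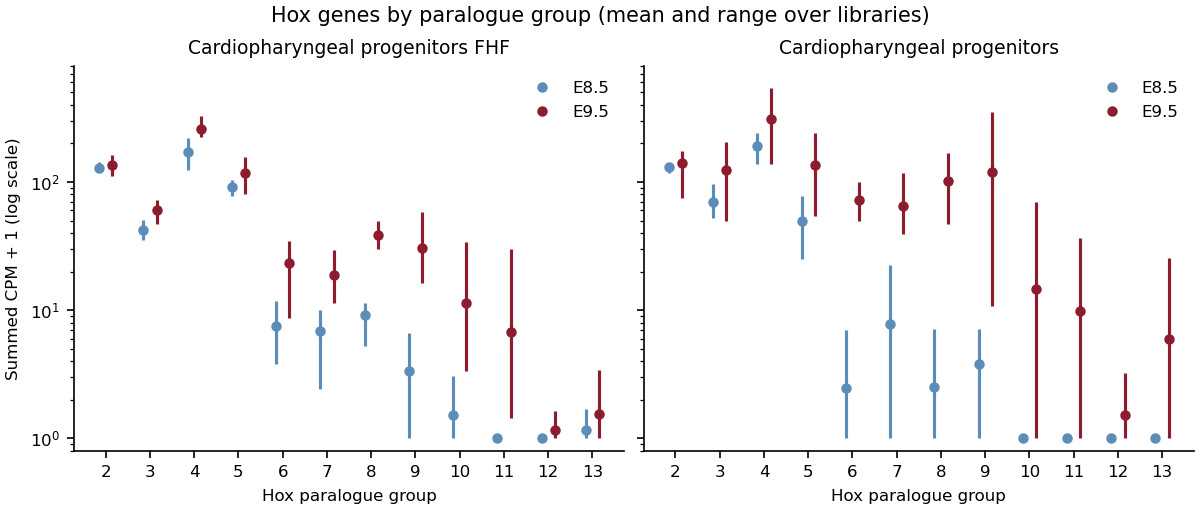
Summed CPM plus 1 on a log axis for Hox paralogue groups 2 to 13 at E8.5 and E9.5 in FHF and general cells, as the mean over libraries with bars from the lowest to the highest library. Group 1 is not plotted, and groups 8 and 9 run higher at E9.5 under both labels.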

How the data were processed

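Single cells of chimeric embryos were profiled by droplet 3′ sequencing, and the deposited counts are raw UMI counts per gene and cell, which the authors made with Cell Ranger on mm10, pooled over libraries in one matrix. The authors also deposited quality and doublet calls, mitochondrial percent per cell, sorting status, and the label and atlas stage of each cell with scores that are a fraction, the share of the 25 nearest atlas cells. Those columns were used as deposited. Members and gene lists were chosen with earlier results of these data known.

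Cells passing the quality filter, not called doublets and carrying either label were kept, with WT-sorted cells holding a tdTomato UMI left out. UMIs were summed per library for libraries with more than 15 FHF cells, or more than 5 general cells, because the general label gave no fit at more than 15. General cells had no fit at E8.5 alone, where 1 null library held 3 of them. Each library took its group from the deposited stage and sorting status, since library names match no sample title. Of 29453 genes 8178 were left out of the fits (gene models with Gm or Rik names, genes of the mitochondrial genome and the Y chromosome, haemoglobins, proteins of the ribosome, *Xist*, *Tsix* and the reporter), while imprinted genes stayed in. Tests used edgeR 4.0.16 in R 4.3.3 (filterByExpr, TMM, robust quasi-likelihood, Benjamini-Hochberg over all genes), with the library as a block where labels or populations of one library were compared. DESeq2 1.42.0 was an alternative. Single values per library were compared by exact permutation within stage (scipy 1.17.1). Levels are CPM of the summed UMIs. Leading genes were ranked by log2 of CPM plus 5 for genes of mean CPM of at least 20. For detection, each cell was thinned to 10000 UMIs, a depth that every cell used exceeded. Intervals are 95% exact binomial, and they and limits of 3 counts cover counting error only. Named genes were the label markers and *Stat3*, up to 10 called genes per direction with the largest change and no overlap, the 5 of smallest p where fewer than 5 were called, and called or highest members of each list, of which those bearing on a statement are printed. Tests of a difference between effects name called genes only. Named beyond this rule after seeing values were the genes of the co-detection, Hox and stage descriptions and genes given for passing the adjusted p alone or for lying apart, such as *H19*. A few genes are counted in totals but not reported here by name.

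On simulated counts with known changes, the E9.5 FHF fit recovered 50.7% of genes changed 2-fold and 100% of those changed 4-fold. The E8.5 FHF fit recovered 43.8% and 91.9%, and the E9.5 general fit 45.3% and 96.9%. A 2-fold change lies exactly at the size a call needed, so its recovery is held down by that limit whatever the fit can detect. Each simulation changed 200 genes, many more than the null against WT fits called, and drew libraries independently. Both ease detection, so these shares may overstate recovery in the real data. Unchanged genes were called as well, 8 of 7434 at E8.5 and 1 of 8688 at E9.5 in the FHF fits, and 6 of 5619 in the E9.5 general fit.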

Additional observations from a re-analysis of the deposited data

Results flagged for a closer look

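In 55 checks of groups of 4 libraries, of which chance alone flags about 1 in 20, 4 values stood apart from those of the other 3 libraries of their group, and E9.5 WT A held 2 of them. *Akr1e1* in FHF cells was 1.80 CPM in E9.5 null B, below the other null libraries at 4.33 to 4.51 CPM. *Hand2* in FHF cells was 30.7 CPM in E9.5 WT C, against 13.4 to 16.3 CPM in the other WT libraries. *Msrb2* in FHF cells was 20.7 CPM in E9.5 WT A, against 9.33 to 11.3 CPM in the others. The median mitochondrial share of general cells was 1.48% in E9.5 WT A, where the group's highest library had 1.76%.

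Effects that differed between populations were given with their tests above. *Pth1r* differed between the labels by −1.66 on the log2 scale, *Fam210b* between FHF cells and all other cells by 1.48, and *Cwc22* between stages in FHF cells by 1.60. The 13 WT-sorted cells of these labels with a tdTomato UMI lay outside every comparison, and including them is covered by the alternative with all WT-sorted singlets.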

How the results depend on the processing

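Alternatives were another normalization (RLE), DESeq2, no filter on low counts, all genes kept, no fold threshold, null-sorted cells with a tdTomato UMI only, all WT-sorted singlets, and leaving out each library, with label scores of 0.6 or more and WT libraries only chosen after seeing the data. Fits without 1 E8.5 library, for genes or abundance at E8.5 alone, also took in the E9.5 libraries, with a null effect for each stage. Their changes against the main fit therefore cannot be laid to single libraries. The cause of each change was not tested. Of the comparisons' main values, 72 alternatives other than left-out libraries kept the direction and side of the threshold (or a count within 1.5 times), and 28 did not. No paired analysis was possible because the library names in the deposited files match no sample title, so no library carries a replicate number.

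Called genes between null and WT FHF cells at E8.5 (1) came to 0 by DESeq2 (40 at an unadjusted p under 0.05, against 315 by edgeR) and at the higher label scores, 3 with RLE, 12 with no filter, 4 with all genes, 2 with no fold threshold and 3 with tdTomato UMIs required. At E9.5 (12) they came to 30 with no filter and 20 with no fold threshold. Over both stages (8) they came to 14 by DESeq2, 37 with no filter, 20 with no fold threshold and 4 at the higher label scores. Called genes of general cells at E9.5 (11) came to 23 with no filter and 20 at the higher label scores, and over both stages (5) to 17 with no filter, 8 with all genes and 10 with both labels summed. The difference between labels (1) gave 0 by DESeq2 (108 at an unadjusted p under 0.05, against 329 by edgeR), 5 with no filter, 2 with all genes and 11 at the higher label scores. The stage comparison (385) gave 622 with no filter, 1830 with no fold threshold and 247 in WT libraries only.

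Leaving out 1 library gave 0 to 4 called genes at E8.5 in FHF cells (0 without WT A or null B, 4 without null A), 8 to 14 at E9.5, 6 to 12 over both stages, 7 to 14 in general cells at E9.5 (7 without E9.5 WT A), 4 to 9 over both stages, 0 to 3 for the difference between labels, 1 to 2 for FHF against all other cells, 334 to 405 between stages and 1 to 2 for the stage difference of the null effect. In the E8.5 fits, which also took in the E9.5 libraries, *Akr1e1* lost its call in 4 of 4. *Pth1r* lost it in 6 of 10, *Akr1e1*, *Camk2n1* and *Rem2* at E9.5 in 6 of 8, and *Tagln* and *Zdbf2* in 5 of 8. *Zfp985* over both stages lost it in 5 of 9, and in general cells *Slc38a4* in 6 of 7 and *Hist2h2ac* in 5 of 7.

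Values that passed no test changed sign. *Gata4* at E9.5 was −0.0525 at the higher label scores, and *Hand2* between stages −0.0693 by DESeq2, −0.0193 at the higher label scores and −0.19 in WT libraries only. General abundance at E8.5 was 0.0237 by DESeq2 and 0.0285 with tdTomato UMIs required, and the general atlas stage difference −0.0469 as a median. Over fits without 1 library, *Gata4* ranged from −0.0157 to 1.33 at E8.5 and −0.34 to 0.24 at E9.5, *Hand2* from −1.07 to 0.0709, −0.32 to 0.31, −0.40 to 0.77 in general cells and −0.23 to 0.35 between stages, FHF abundance at E9.5 from −0.0782 (without E9.5 WT A) to 0.37, and the atlas stage difference from −0.023 to 0.010 in FHF and −0.038 to 0.043 in general cells. The general label gave no fit above 15 cells per library, and its abundance without E8.5 WT B had too few cells. Simulated 2-fold changes, which lie at the size a call needed, were recovered in 37.9% of genes for the difference between labels. For the stage difference of the null effect the share was 20.9%. Simulated 4-fold changes were recovered in 88.1% and 81.8%.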

Other observations

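The median share of mitochondrial transcripts in general cells was lower in null than in WT libraries, with null minus WT at −0.221 percentage points over both stages (exact two-sided permutation within stage, p = 0.0381, the smallest possible being 0.00952). Adjusted over the 10 tests of this kind p was 0.381, so the difference failed the correction. In FHF cells the difference was −0.129 percentage points (exact permutation p = 0.152, adjusted p = 0.714), and null and WT FHF cells differed by 3139 UMIs per cell in the median (exact permutation p = 0.438).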
